A study of Mus musculus with 2 samples.

Results

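Galanin, neuropeptide Y (NPY), vasoactive intestinal polypeptide (VIP), pituitary adenylate cyclase-activating polypeptide (PACAP) and cholecystokinin are peptides that sensory neurons can switch on after their axon is cut. Their 5 genes (Gal, Npy, Vip, Adcyap1 and Cck) and 5 genes of their receptors (Galr1, Npy1r, Npy2r, Vipr2 and Adcyap1r1) were examined in dorsal root ganglion (DRG) neurons. The 10 genes were taken by symbol from 37008 gene names on the array, without use of their values, and are read by 18 of 56605 non-control probes. Each probe is a synthetic strand of 60 bases that binds labelled copies of a transcript. The mice were C57BL/6 and carried the AND T cell receptor transgene, written (tcr)AND Tg in the labels. One group was Dock8+/-, labelled as low in the itch cytokine interleukin-31 (IL-31), and the other was Dock8-/-, labelled as high in it. DOCK8 is a regulator of immune cell movement. Each group was 1 sample on 1 array, with both arrays on the same slide. Treatment, age, sex, the deleted stretch of Dock8 and any pooling of animals are not stated in the sources used here. The comparison asked which DRG transcripts differ between these mice. With 1 array per genotype there is no replicate check, no test and no error between mice, and each difference is between 2 arrays.

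Galanin acts on galanin receptors and NPY on the NPY receptors, most of which couple to inhibitory G proteins. VIP and PACAP act on receptors that raise cyclic AMP. In uninjured ganglia Gal, Npy and Vip are known to be sparse and Adcyap1 to mark a subset of small neurons, while axotomy raises them. Cholecystokinin is likewise known to appear in injured sensory neurons, where it opposes opioid relief of pain. This is background, and no injury is named in the labels.

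The Dock8-/- array was the dimmer one. Processed intensity, the corrected brightness of a spot, had a 75th percentile of 303.8 for Dock8+/- and 145.6 for Dock8-/-, a ratio of 2.09. Of all non-control probes, 56.9% and 50.7% were well above background, the scanner software's flag for a clearly detected spot. The lowest intensity with that flag was 17.4 and 16.1. Differences below are log2 intensity after subtraction of each array's 75th percentile, Dock8-/- minus Dock8+/-, and a gene with several probes takes the probe with the highest mean. Equal intensities on both arrays therefore appear as a 2.09-fold higher scaled signal in Dock8-/-. Spike-in transcripts gave another scale. The 8 E1A spike-in probes were brighter on the Dock8-/- array by a median of 0.79 on the log2 scale, from 0.48 to 1.03, which shifts every gene's difference by -1.85 from the scale used here. Of the DRG neuron markers, 22 of 23 listed were found by name, and all 22 were well above background on both arrays with a median difference of 0.06. Of the 5 probes for Dock8, the targeted gene, 1 passed the detection flag in Dock8+/-, at 20.5 against 6.87 in Dock8-/-, and 0 of 5 did in Dock8-/-. Whether that probe lies in the deleted stretch is unknown here, so it checks the labels only weakly.

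Of the 10 member genes, 7 were measured on both arrays. In Dock8-/-, Npy1r and Cck stood past 2-fold on the higher side, Vipr2 stood past 2-fold on the lower side, and Gal, Adcyap1, Npy2r and Adcyap1r1 differed by less. Among all 18649 genes so measured, 9.08% lay past 2-fold on the higher side and 7.03% on the lower, with a median difference of 0.03 and quartiles at -0.39 and 0.48. Counts of 2 and 1 among 7 genes carry no test. By single probes, 11 member probes were detected on both arrays, of which 5 lay past 2-fold on the higher side and 1 on the lower, against 11.8% and 7.06% of all 27734 such probes. Fewer cells of a type and less RNA per cell cannot be told apart in these bulk samples. Npy was read on the Dock8-/- array alone, Galr1 on the Dock8+/- array alone, and Vip on neither.

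**Figure D1:**
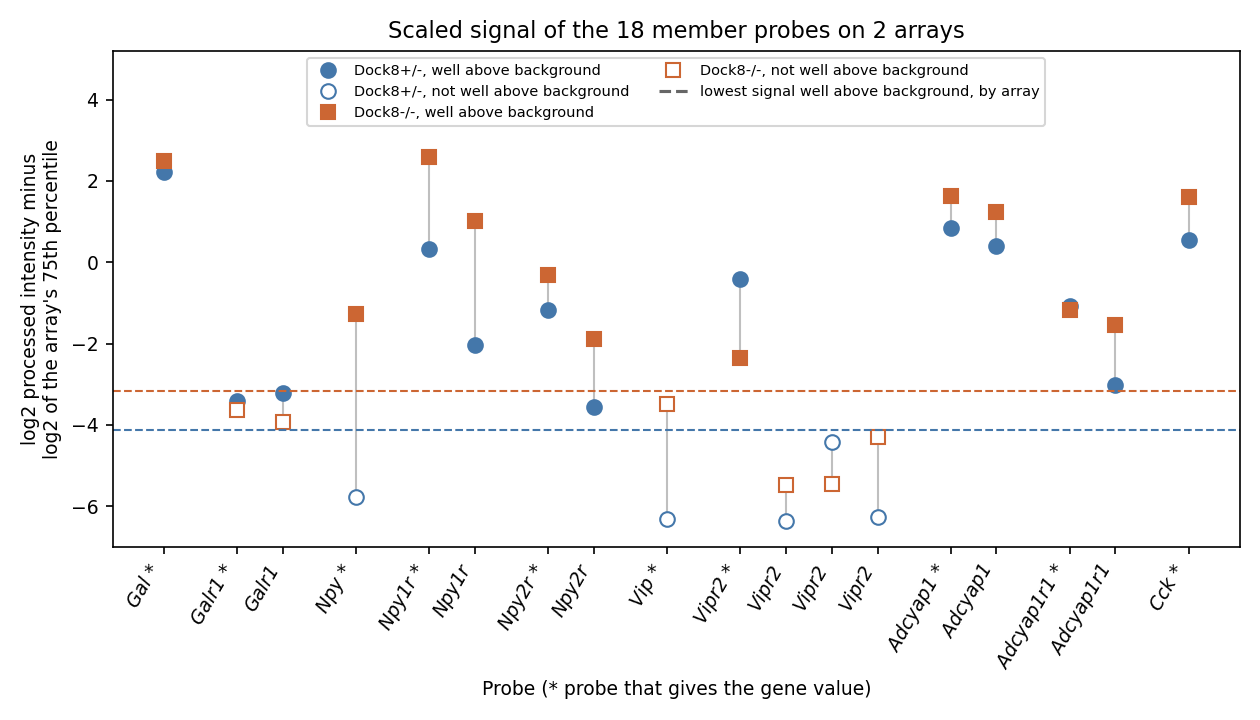
Scaled log2 signal of each of the 18 member probes (x axis, grouped by gene) on the Dock8+/- array (circles) and the Dock8-/- array (squares), with open symbols for probes not well above background and dashed lines at the lowest signal well above background. Both Npy1r probes and the Npy probe lie clearly higher in Dock8-/-, the 1 detected Vipr2 probe lies lower, and 3 Vipr2 probes and the Vip probe are open on both arrays.

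Gal, on the scale used here, lay near the middle of all measured genes. Its probe gave a processed intensity of 1415 in Dock8+/- and 823 in Dock8-/-, which became scaled log2 signals of 2.22 and 2.50. The difference was 0.28, or 1.21-fold. Among all measured genes 34.7% had a difference at least as high, and on the spike-in scale its difference was -1.57. The sequence of this probe is shown with that of Npy because each of these genes is read by 1 probe only. The Gal probe lies at chr19:3411143-3411202 on the minus strand of mm9, the build in the file headers. The Npy probe spans chr6:49773743-49777505 on the plus strand, 3763 bases for a probe of 60, so it crosses an intron. No base is in capitals.
Gal probe: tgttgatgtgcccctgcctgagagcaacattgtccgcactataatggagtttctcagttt
Npy probe: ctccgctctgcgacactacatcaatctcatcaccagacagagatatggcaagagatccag

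Galr1, an inhibitory galanin receptor, was close to the detection limit. Its probes on chromosome 18 gave intensities of 28.5 and 32.5 in Dock8+/-, both well above background. In Dock8-/- they gave 11.7 and 9.55, neither well above background. The Dock8+/- signal did not exceed the scaled detection limit of the dimmer array, so no fold can be given on the main scale. Under spike-in scaling the bound was at least 3.49-fold lower in Dock8-/-.

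In the NPY system the peptide gene and its receptor gene Npy1r both had a higher signal in Dock8-/-. The Npy probe gave an intensity of 5.58 in Dock8+/-, not well above background, and 60.5 in Dock8-/-, well above it. Npy was thus at least 7.28-fold higher, where the Dock8+/- side is taken at its own signal or at that array's lowest detected signal, whichever is larger. By this bound 99% of the 515 genes read on the Dock8-/- array alone were past 2-fold. It stayed above 1 under each scaling, at least 2.83-fold with normexp background correction and at least 2.02-fold on the spike-in scale.

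Npy1r encodes a receptor through which NPY inhibits small sensory neurons. Its probe with the higher signal gave 378 in Dock8+/- and 878 in Dock8-/-, a log2 difference of 2.28 or 4.86-fold. The other probe gave 74.1 and 291, a difference of 3.04 or 8.21-fold. Both probes were brighter on the Dock8-/- array even before scaling, by 2.33-fold and 3.93-fold. Only 154 of 18649 measured genes, or 0.826%, had a difference at least as high as that of Npy1r. On the spike-in scale the difference was 0.43, and of the 7 members measured on both arrays no other was above 0 there. The first 30 bases of both probes are shown, since the result is carried by 2 separate stretches of the transcript. They lie at chr8:69230632-69230691 and, 2882 bases upstream, at chr8:69227750-69227809 on the plus strand of mm9.
Npy1r probe, higher signal: aaatgttgcctgtgtgtgattttagaaggg
Npy1r probe, lower signal: gagtatgctgaagatttgatccgttttgaa

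Npy2r, a receptor found on sensory nerve endings that also inhibits release, was less than 2-fold apart on its main probe. That probe gave 133 in Dock8+/- and 116 in Dock8-/-, a difference of 0.86 or 1.82-fold. The other probe gave 25.9 and 39.2, a difference of 1.66 or 3.16-fold. Of all measured genes 12.4% had a difference at least as high as that of the main probe. Read as the mean of its probes, Npy2r had a difference of 1.26, past 2-fold, and on the spike-in scale it was -0.99.

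VIP was not detected. Its probe, which crosses an intron at chr10:4699681-4701551 on the minus strand of mm9 in the files' annotation, gave 3.84 in Dock8+/-, a surrogate value for a spot at background. It gave 13.0 in Dock8-/-, flagged as above background but without the flag for well above it. No fold is given for a gene without a clear signal on either array. The strand is that of mm9: of 17 probes for 6 other genes within 1 Mb, 0 are on the strand their gene has in GRCm38.p6, while 99.3% of 32853 probes over the array are, so the whole stretch is turned between these builds. Vipr2, a receptor for VIP and PACAP that raises cyclic AMP, was lower in Dock8-/- on the 1 probe that detected it. That probe gave 228 in Dock8+/- and 28.3 in Dock8-/-, a difference of -1.95 or 3.87-fold lower. Only 1.20% of measured genes had a difference as low or lower. Its other 3 probes missed the detection flag on both arrays, with intensities from 3.68 to 14.1 in Dock8+/- and from 3.27 to 7.42 in Dock8-/-. The value thus rests on a single spot on each array, and it moved to -0.89, less than 2-fold, under normexp background correction. The detected probe lies at chr12:117384455-117384514 on the plus strand of mm9, downstream of the other 3, and its first 30 bases are shown.
Vipr2 probe: acatgtgaacacaagcagtcactgagtgca

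Adcyap1 and Adcyap1r1, for PACAP and its receptor, differed by less than 2-fold as genes on the scale used here. On the spike-in scale both were past 2-fold lower, at -1.08 and -1.95. The Adcyap1 probes gave 548 and 400.0 in Dock8+/- and 447 and 343 in Dock8-/-. Their differences were 0.77 and 0.84, or 1.70-fold and 1.79-fold higher, and the gap of 0.07 between them was one of the smaller ones. Of 4238 genes with 2 probes measured on both arrays, 90.9% had a gap at least that large. Adcyap1r1, encoding the PACAP-preferring receptor, gave conflicting values. One probe gave 143 in Dock8+/- and 64.2 in Dock8-/-, a difference of -0.10. The other gave 37.2 and 49.8, a difference of 1.48 or 2.79-fold higher. This gap of 1.58 was reached by 6.61% of such genes, and the gene's direction turned to 0.69 when its probes were averaged and to 0.12 under normexp.

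Cck was 2.07-fold higher in the Dock8-/- sample after scaling, from nearly equal brightness on both arrays. It is the member with the best technical precision, since its probe is printed in 10 spots on each array. Intensities ran from 412 to 492 with a median of 444 in Dock8+/-, and from 405 to 471 with a median of 449 in Dock8-/-. The mean ± SD over spots was 447 ± 24.1 (n = 10 spots) and 442 ± 23.9 (n = 10 spots), so the spots of both arrays overlapped before scaling. The scaled log2 difference of 1.05 therefore follows the scale chosen. It was 0.81 under normexp and -0.80 on the spike-in scale. Of measured genes, 8.12% had a difference at least as high. The Cck probe lies at chr9:121398943-121399002 on the minus strand of mm9, and its first 30 bases are shown.
Cck probe: cttcagtgactcccagacctaatgttgcta

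**Figure D2:**
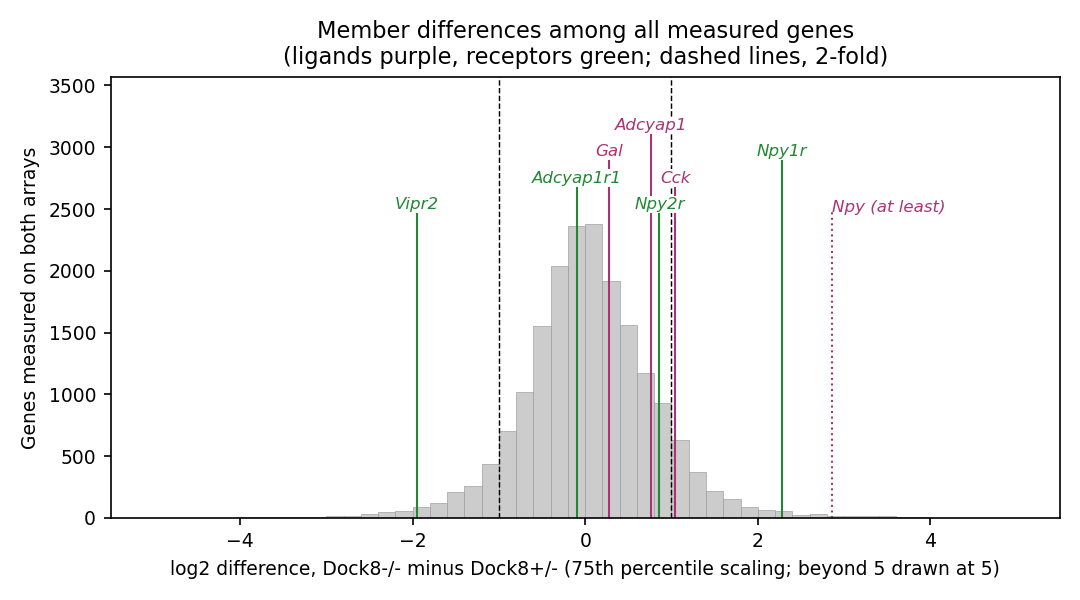
Histogram of the log2 difference, Dock8-/- minus Dock8+/-, of 18649 genes measured on both arrays, with member ligands (purple) and receptors (green) as lines and dashed lines at 2-fold. Npy1r at 2.28 and Vipr2 at -1.95 stand in the tails, Cck lies just past 2-fold, Npy is drawn at its lower bound of 2.86, and Gal and Adcyap1r1 lie near the centre.

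Over the array, 2 probes of a gene often disagreed by more than the spots of a bright probe did. For Cck the SD of log2 intensity over spots was 0.08 on each array. Over 254 probes with 10 spots well above background the root mean square SD was 0.04 in Dock8+/- and 0.05 in Dock8-/-, most of them at higher intensities than the Cck probe. The median gap between the log2 differences of a gene's 2 probes was 0.51 over 4238 genes, and 10% of them exceeded 1.40. Npy1r with a gap of 0.76 and Npy2r with 0.80 were unremarkable by that measure. In 3 of the 4 members with 2 measured probes (Npy1r, Npy2r and Adcyap1r1) the probe nearer the 5′ end gave the higher difference, as it did in 55.8% of 4178 genes. In 4 of the 4 the dimmer probe gave the higher difference, as it did in 52.1% of those genes. In the 3 named members the dimmer probe was also the one nearer the 5′ end. Neither position along the transcript nor brightness was tested as a part of these differences. With measured genes cut into 5 equal bins from dim to bright by mean signal, the dimmest bin had a median difference of 0.39 and 19.0% of its genes past 2-fold on the higher side. Medians in the other bins ran from -0.04 to 0.01. By the probe that gives the gene value, Npy2r, Vipr2 and Adcyap1r1 lay in bin 2. Adcyap1 and Cck lay in bin 3, and Gal and Npy1r in bin 4. Vipr2, with a mean of -1.39, was just above the edge of the dimmest bin at -1.40. The second probes of Npy2r (-3.55 in Dock8+/- and -1.89 in Dock8-/-) and Adcyap1r1 (-3.03 and -1.55) lay below that edge. Both are among the 5 member probes past 2-fold on the higher side.

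**Figure D3:**
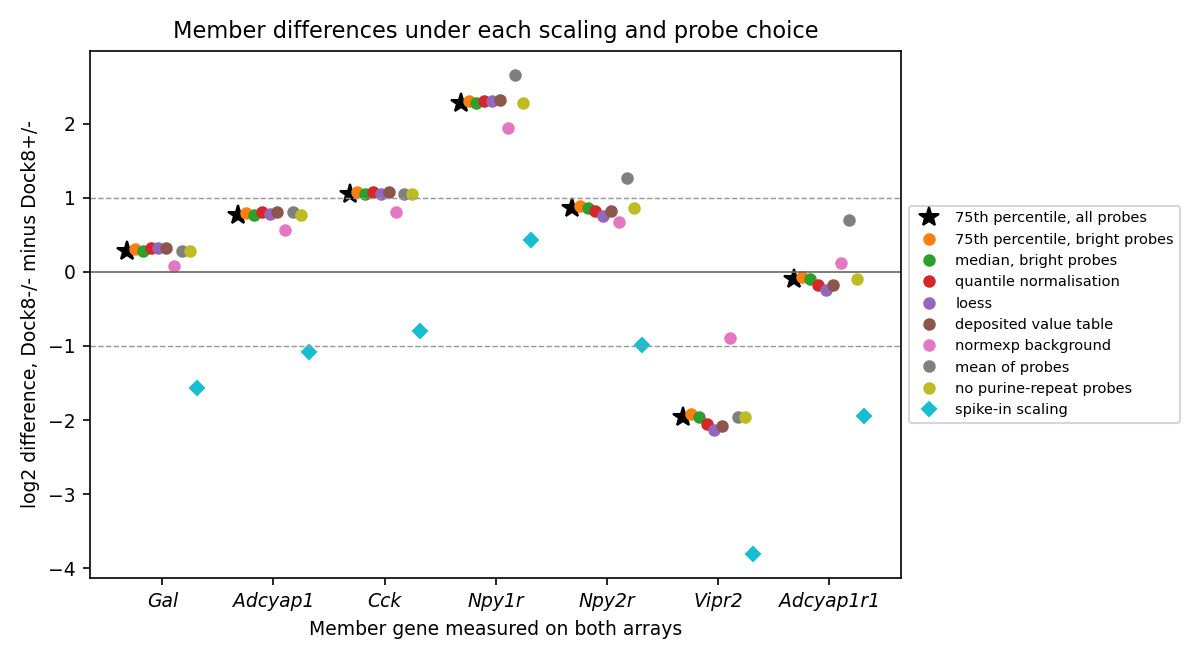
Log2 difference of the 7 members measured on both arrays (x axis) under 10 choices of scale, background or probe, with the main value as a star and dashed lines at 2-fold. Npy1r is above 0 under each choice, Vipr2 is below 0 under each, and spike-in scaling (diamonds) shifts all 7 by -1.85, which takes Gal, Adcyap1, Cck and Npy2r below 0.

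Promoters of the peptide genes are shown because cyclic AMP response elements and AP-1 sites are known in genes of this kind, although the arrays measured no binding. Sequences come from RefSeq on GRCm38.p6, where 9 of 10 members had an entry. The 250 bases before each annotated start were searched on both strands for TGACGTCA, a full cyclic AMP response element, for TGACGT, which is contained in it, for TGCGTCA, added after the sequences had been seen, and for TGANTCA, an AP-1 site. TGACGTCA was in no member promoter and in 1.55% of all 32851. TGACGT was in the Vip promoter and in both Adcyap1 entries, which share it, and in 6.47% of all. TGCGTCA was in Cck alone among members and in 1.75% of all. TGANTCA was in Npy1r alone among members, starting at -231, and in 6.75% of all. The Npy and Gal windows held none of these letters. Matches are in capitals. The windows of Npy, Gal, Vip and Cck end before the gene's first base, and for Adcyap1 30 bases around its match are shown. That match starts at -91 from one annotated Adcyap1 start and at -242 from the other. The stretches shown are chr6:49822590-49822709 (plus) for Npy, chr19:3414545-3414664 (minus) for Gal, chr10:5639098-5639192 (plus) for Vip, chr9:121495695-121495814 (minus) for Cck and chr17:93198914-93198943 (plus) for Adcyap1.
Npy: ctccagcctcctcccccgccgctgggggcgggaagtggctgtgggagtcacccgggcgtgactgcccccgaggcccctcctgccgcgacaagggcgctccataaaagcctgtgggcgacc
Gal: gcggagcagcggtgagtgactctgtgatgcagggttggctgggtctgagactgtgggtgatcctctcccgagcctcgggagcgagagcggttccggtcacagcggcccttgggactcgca
Vip: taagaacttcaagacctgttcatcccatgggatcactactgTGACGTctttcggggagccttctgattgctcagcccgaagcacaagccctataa
Cck: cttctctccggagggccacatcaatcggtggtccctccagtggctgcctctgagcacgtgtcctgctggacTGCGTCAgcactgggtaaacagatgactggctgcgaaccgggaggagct
Adcyap1: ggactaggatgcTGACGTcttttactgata

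Other receptors of the same families were mostly undetected. Of 10 listed, 6 were undetected on both arrays: Galr2, Npy5r, Npy6r, Vipr1, Sctr and Ghrhr. The 4 measured ones had a median difference of 0.83, and 1 was at least 2-fold higher. Over all measured genes the median was 0.03, and 9.08% were at least 2-fold higher. The 1 higher receptor was Galr3, a galanin receptor, with intensities of 42.2 in Dock8+/- and 40.8 in Dock8-/-, or 2.01-fold higher after scaling. It was under 2-fold with quantile normalisation, loess, normexp and the authors' deposited value table, and below 0 on the spike-in scale. Cckbr was 1.80-fold, Npy4r 1.77-fold and Cckar 1.30-fold higher. Galr3 and Cckbr, the latter at intensities of 35.2 and 30.3, lay in the dimmest of the 5 brightness bins. The median there was 0.39, and 19.0% of genes were past 2-fold on the higher side. Of 8 related peptide genes, Gcg alone was measured on both arrays, at 0.24, and 5 were undetected. Galp, a galanin-like peptide, was read on the Dock8+/- array alone, at 68.3 against 3.68, and was at least 2.03-fold lower in Dock8-/-. Sct, encoding secretin, was read there alone too, at least 1.75-fold lower. By such bounds 17.6% of 2545 genes read on the Dock8+/- array alone lay past 2-fold on the lower side.

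Most genes that cut, amidate and store peptides differed by less than 2-fold, as most genes on the array did. All 17 were read on both arrays, with 0 past 2-fold on the higher side, 2 on the lower and a median difference of 0.33. Over all measured genes 9.08% lay past 2-fold on the higher side and 7.03% on the lower, with a median of 0.03. On the spike-in scale all 17 lay past 2-fold on the lower side, beside 87.4% of all measured genes. Pcsk5, a proprotein convertase, was 4.46-fold lower on the 1 of its probes measured on both arrays. Dpp4, a peptidase that trims NPY, was 2.06-fold lower on its main probe, while another of its probes gave 0.58. Chga was 1.77-fold lower and Vgf 1.69-fold higher, and both encode proteins of dense-core vesicles. Of 27 genes for G proteins, adenylyl cyclases, protein kinase A and CREB factors, 26 were measured, with a median of 0.27. Past 2-fold lay 1 on the higher side and 0 on the lower, against the same 9.08% and 7.03% of all measured genes. On the spike-in scale 22 of the 26 lay past 2-fold on the lower side, beside 87.4% of all measured genes. The 1 higher gene was Gnao1, an inhibitory G protein, at 2.19-fold, although its probes ran from -0.11 to 1.69. Adcy6, Adcy8 and Prkar2a were 1.93-fold, 1.89-fold and 1.87-fold higher, and probes of Prkar2a ran from -0.94 to 0.91.

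A list of other genes known to change in cut sensory neurons leaned to the higher side on the scale used here. The list was chosen with earlier results of these data known. Of 28 genes, 22 were measured, of which 8 lay past 2-fold on the higher side and 1 on the lower. The shares over all measured genes were 9.08% and 7.03%. Of the 22, 19 were above 0, and the median was 0.86 beside 0.03 over all genes. Sox11, a transcription factor of regrowing axons, was 3.28-fold higher at intensities of 48.4 in Dock8+/- and 76.1 in Dock8-/-, with probes from 1.46 to 2.58. Fgf2, a growth factor, was 3.98-fold higher on a probe with a purine repeat, at 35.1 and 66.9. Sox11 and Fgf2 lay in the dimmest of the 5 brightness bins, where the median was 0.39 and 19.0% of genes were past 2-fold on the higher side. Cdkn1a, a cell cycle inhibitor, was 3.07-fold higher. Atf3, the usual marker of axotomised neurons, was 1.81-fold higher at intensities of 160 and 138, and Gap43, a growth cone protein, 1.11-fold. Sprr1a and Lif were read on the Dock8-/- array alone, at least 7.11-fold and at least 3.08-fold higher. By this bound 99% of all 515 genes read on that array alone were past 2-fold. Anxa1, encoding an anti-inflammatory protein, was 4.94-fold lower. The list's median was 0.87 under quantile normalisation, 0.84 under loess, 0.65 under normexp and -0.99 on the spike-in scale. On that last scale 0 lay past 2-fold on the higher side and 10 on the lower. Of all measured genes 0.306% and 87.4% did so.

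**Figure D4:**
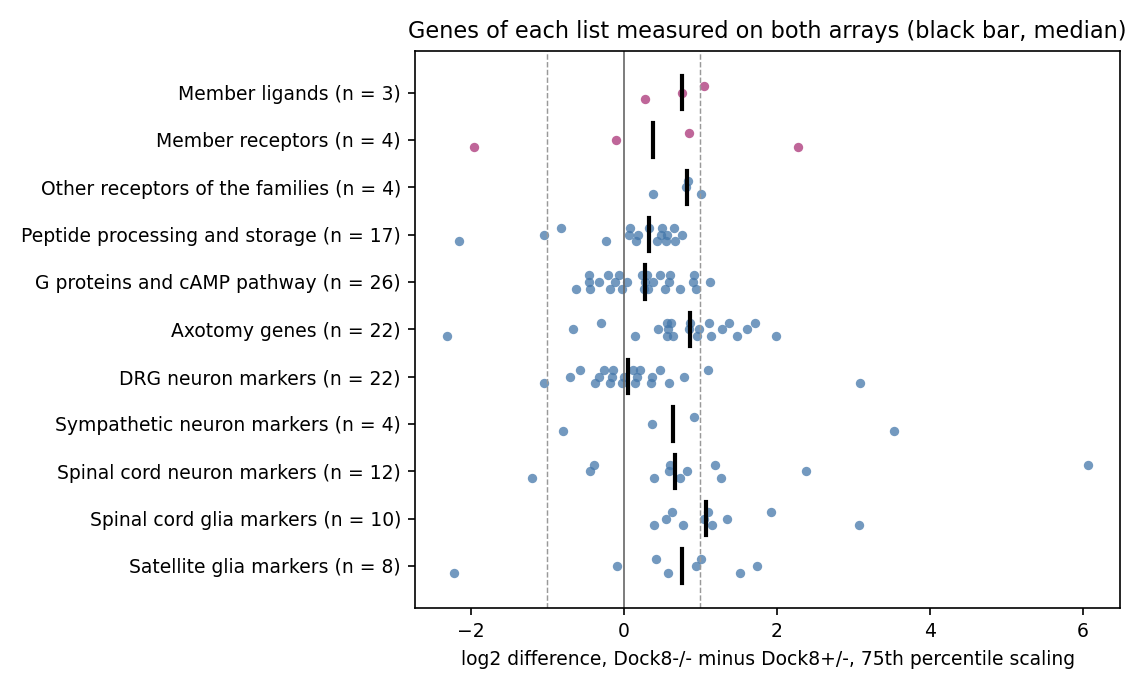
Log2 difference, Dock8-/- minus Dock8+/-, of each gene measured on both arrays (points), by gene list (y axis, n genes), with the median as a black bar and dashed lines at 2-fold. Axotomy genes have a median of 0.86 and DRG neuron markers 0.06, and the spinal cord glia markers, with a median of 1.08, are all above 0.

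Several cell types other than sensory neurons also express NPY, cholecystokinin or their receptors, and their markers are given for that reason. Sympathetic neurons are rich in NPY. Of 9 of their markers, Dbh, Phox2a and Hand2 were undetected on both arrays, Slc6a2 and Gata3 were read on the Dock8+/- array alone, and 4 were measured. The summed scaled signal of the list was 15.8 in Dock8+/- and 16.3 in Dock8-/-. Most of the Dock8+/- sum was Th, which was 1.73-fold lower in Dock8-/-, at intensities of 4402 and 1219. Ddc was 11.6-fold higher, at 188 and 1043. The near-equal sums thus rest on opposite differences of 2 genes and do not compare amounts of sympathetic neurons. Of 16 spinal cord neuron markers, 12 were measured, with 4 past 2-fold on the higher side, 1 on the lower and a summed signal of 22.7 and 27.7. Over all measured genes the shares past 2-fold were 9.08% and 7.03%. Lbx1, a dorsal horn transcription factor, was 5.24-fold higher, Chat 2.41-fold and Tac2 67.0-fold. Tac2, at intensities of 21.1 in Dock8+/- and 677 in Dock8-/-, makes up most of the rise in the summed signal. Slc6a5 was 2.29-fold lower, and Slc32a1 at -0.44 and Pax2 at -0.39 were below 0 too. Pax8 was read on the Dock8-/- array alone, at least 2.62-fold higher. Tlx3 was read on the Dock8+/- array alone, and Tfap2b and Mnx1 on neither. Of 11 spinal cord glia markers, 10 were measured and 6 lay past 2-fold on the higher side, with a summed signal of 23.8 and 74.7. Gfap was 8.42-fold higher there, and Opalin was read on the Dock8+/- array alone. Of 8 satellite glia markers, 3 lay past 2-fold on the higher side and 1 on the lower, with a summed signal of 552 and 764. The part of these cells in the values of Npy, Npy1r and Cck was not tested.

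Markers of macrophages, fibroblasts and muscle were lower in Dock8-/-, as Vipr2 was. Of 12 macrophage markers, all measured, 10 lay past 2-fold on the lower side, beside 7.03% of all measured genes. Their summed scaled signal was 191 in Dock8+/- and 43.6 in Dock8-/-. Of 8 fibroblast markers, 6 did so, with a summed signal of 901 and 287. Among these 6, probes of Col1a2 ran from -2.26 to 0.05, of Col3a1 from -3.21 to -0.42 and of Fn1 from -1.10 to 0.73. Those of Col1a1 ran from -3.24 to -2.94. Of 8 skeletal muscle markers, all 4 measured ones lay past 2-fold on the lower side. Another 3 were read on the Dock8+/- array alone, and the summed signal was 37.6 and 2.25. Of 9 measured Schwann cell markers, 3 lay past 2-fold on the lower side and 0 on the higher, with a summed signal of 365 and 315. The part of these cells in the values of Vipr2, Galr1 and Galp was not tested.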

How the data were processed

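Total RNA of DRG neurons, 1 sample per genotype, was hybridised to 1-colour Agilent arrays with Cy3. The deposited scanner files give spot intensity on a linear scale, made with Agilent Feature Extraction 10.7.1.1 per the file headers, while the submitters' processing notes name 9.5.1.1. Processed intensity is corrected for spatial trend, and dim spots carry a surrogate value, per the file headers. The deposited value table also holds linear intensity. Its sorted columns were equal for 98.9% of values (tolerance 0), both medians were 27.9, and its log2 values correlated with the scanner files at 0.999 or more, so scale, direction and quantile normalisation were found from the values. It served as an alternative.

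Spots of one probe were averaged as log2 intensity and scaled to each array's 75th percentile. Spots flagged non-uniform (3 and 1) or as population outliers (44 and 39) were left out, none of them from members, and 0 were saturated. Other genes were named through RefSeq accessions (32990 probes), symbols (10224), older symbols (520) or the file's name (12867). limma 3.58.1 in R 4.3.3 gave normexp (offset 50), quantile and loess (span 0.3) values. The calculation was tested on simulated data. The named genes are all members, up to 4 genes per list with the largest difference, up to 2 with the largest bound, and a fixed set (Galr2, Npy5r, Vipr1, Cckar, Cckbr, Atf3, Sox11, Gap43). Markers of other cells were named after their values were seen. A listed marker is not reported here and was left out of its list's count and sum. With 2 arrays no gene was sought for a pattern like a member's. Members and lists were chosen with earlier results of these data known. Exon and UTR annotation of mm9 was not used here. The number of arrays limits the precision.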

Additional observations from a re-analysis of the deposited data

How the results depend on the processing

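No paired analysis was possible because there was 1 array per genotype and no test, and for the same reason no replicate could be left out. In all, 13 alternatives were tried. On the main scale 2 of the 7 members measured on both arrays were at least 2-fold higher and 1 was at least 2-fold lower. The count of higher members was 4 at a 1.5-fold threshold (20.9% of all genes), 1 at 3-fold (2.61%), 4 of 10 with no filter on dim probes (14.7%), 1 under normexp (3.77%) and 0 under spike-in scaling (0.306%). The count of lower members was 0 under normexp (4.64% of all genes) and 4 under spike-in scaling (87.4%). Thresholds and filters change counts by construction, and spike-in scaling shifts all differences by -1.85. The cause of the change under normexp, which moved the median difference of all detected probes by -0.11, was not tested. Under spike-in scaling Cck, past 2-fold before, turned to -0.80, as did the second probes of Adcyap1r1 (-0.37) and Npy2r (-0.19). Members under 2-fold turned too: Adcyap1 to -1.08, Npy2r to -0.99 and Gal to -1.57. Spike-in scaling apart, Npy1r ranged from 1.94 to 2.66, Vipr2 from -2.13 to -0.89, Cck from 0.81 to 1.08, Npy2r from 0.67 to 1.26, Adcyap1 from 0.57 to 0.81, Gal from 0.08 to 0.32 and Adcyap1r1 from -0.24 to 0.69. Npy and Galr1 were below the detection flag on 1 array, and Vip and 3 of the 4 Vipr2 probes on both.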
